A study of Drosophila melanogaster with 12 samples.

Results

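Cytosolic ribosomal protein genes encode the protein subunits of the ribosome that translates cytoplasmic mRNAs. The 92 genes described here were taken from 13968 protein-coding genes of the dm6 annotation, as those whose symbol begins with RpL or RpS followed by a digit or by P. By symbol they comprise 54 large subunit genes (RpL) and 38 small subunit genes (RpS), including relatives such as RpLP0-like and RpL24-like that are counted by their symbols alone, and the other 13876 protein-coding genes serve for comparison. Of the 92 genes, 14 lie on X, 1 lies on chromosome 4 and none lies on Y. Mitochondrial ribosomal protein genes carry other symbols and are counted among the comparison genes.

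Exposed chromatin was mapped by ATAC-seq, whose transposase cuts and tags DNA where nucleosomes leave it free, in pools of hand-selected whole Drosophila melanogaster embryos. The 12 libraries form 6 groups of 2 biological replicates. M-Z+ HIRA mutant embryos were collected at 0.5-1.5h and at 2-3h after egg laying, each with wild-type embryos as its control, and M-Z+ dPCIF1 mutant embryos were collected at 0.5-1.5h with a wild-type control of their own. The M-Z+ label denotes embryos that lack the product of a mutant mother, with a functional copy of the gene expected from the father. The study made mutant alleles of both genes by genome editing and also used a deficiency line for dPCIF1. Which alleles gave these libraries is not stated in the sample titles. HIRA is a histone chaperone that deposits the variant H3.3, and dPCIF1 is the fly member of the PCIF1 protein family. The study describes arrested or delayed nuclear division in embryos without maternal HIRA. Mutants and controls of one collection window can therefore differ in developmental age as well as genotype, and the effects of the 2 cannot be told apart here. The study also cites a role of HIRA in forming the diploid zygote. Whether the father's copy was present in HIRA mutant embryos was not examined here. No 2-3h dPCIF1 libraries were analysed.

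Ribosomal protein genes are among the most heavily transcribed genes of a growing cell and their products are needed in equal numbers. In flies, many of them start transcription at a polypyrimidine initiator called TCT in place of the usual initiator and TATA box, and the TBP-related factor TRF2 serves many of these promoters. The egg is loaded with maternal ribosomes and ribosomal protein mRNAs, and the zygotic genome is switched on in a minor and then a major wave during the stages sampled here.

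The promoters of 6 members are shown because their genes span the whole range of the results. RpL13A was the only member with a peak in all 12 libraries, RpS9, RpL35 and RpL36 changed in 3, 2 and 2 of the 5 comparisons, and RpL10 and RpL10Aa had no peak in any library. Each stretch runs 5' to 3' along the gene from 150 bases before the annotated start through the first 50 bases of the transcript, read from the Release 6 (dm6) genome. Capitals mark matches to the letters searched. TCT initiator letters were searched and marked only within 10 bp of the start, and RpL36 and RpL10 hold such letters unmarked outside that range. RpL13A lies at chr3R:5624324-5624523 on the plus strand, RpS9 at chr3L:9511256-9511455 on the minus strand, RpL35 at chrX:5672584-5672783 on the plus strand, RpL36 at chrX:629367-629566 on the minus strand, RpL10 at chr3L:23095422-23095621 on the minus strand and RpL10Aa at chr3R:15037216-15037415 on the plus strand.
RpL13A: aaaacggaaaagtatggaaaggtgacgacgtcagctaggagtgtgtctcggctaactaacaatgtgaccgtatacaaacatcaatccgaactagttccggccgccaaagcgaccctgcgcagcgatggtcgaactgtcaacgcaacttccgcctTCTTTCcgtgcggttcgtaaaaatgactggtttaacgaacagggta
RpS9: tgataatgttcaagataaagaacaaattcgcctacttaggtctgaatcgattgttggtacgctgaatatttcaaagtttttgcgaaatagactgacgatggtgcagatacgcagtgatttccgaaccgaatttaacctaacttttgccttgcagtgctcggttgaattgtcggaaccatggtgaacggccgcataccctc
RpL35: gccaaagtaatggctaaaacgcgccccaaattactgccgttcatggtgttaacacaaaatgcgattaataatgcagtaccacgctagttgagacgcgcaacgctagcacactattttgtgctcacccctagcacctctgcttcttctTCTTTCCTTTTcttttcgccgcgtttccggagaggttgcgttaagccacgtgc
RpL36: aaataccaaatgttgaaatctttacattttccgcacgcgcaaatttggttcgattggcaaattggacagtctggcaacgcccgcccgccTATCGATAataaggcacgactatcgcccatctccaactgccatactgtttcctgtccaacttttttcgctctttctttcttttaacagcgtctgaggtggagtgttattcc
RpL10: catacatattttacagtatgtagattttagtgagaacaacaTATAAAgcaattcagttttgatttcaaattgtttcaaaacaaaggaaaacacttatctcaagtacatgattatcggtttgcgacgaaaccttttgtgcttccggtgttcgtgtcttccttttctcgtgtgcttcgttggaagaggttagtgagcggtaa
RpL10Aa: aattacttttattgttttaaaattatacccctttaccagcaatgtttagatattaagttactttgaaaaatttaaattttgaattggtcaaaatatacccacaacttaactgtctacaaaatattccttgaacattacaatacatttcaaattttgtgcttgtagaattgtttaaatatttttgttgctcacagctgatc

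The capitals in RpL13A and RpL35 are TCT initiator letters at the start, those in RpL36 are the 8 letters bound by DREF, and those in RpL10 are TATA box letters well upstream of the start. The printed stretches of RpS9 and RpL10Aa held none of the letters searched. In the longer stretch searched below, RpS9 held the letters of M1BP and RpL10Aa those of the TATA box, and RpS9 also had TCT letters at another annotated start. Across all members, 38 of 92 (41.3%) had the TCT initiator, searched as TCTTTC or TCTTTT and as the variants beginning with C (CCTTTC or CCTTTT), within 10 bp of the main annotated start on the sense strand, against 1.64% of the other genes, and 55 members (59.8%, other genes 2.44%) had them at any annotated start. The letters TATCGATA, recognised by the proliferation factor DREF, occurred on either strand between 250 bp before and 50 bp after the start in 28 members (30.4%), against 8.80% of other promoters. The 7 letters TATCGAT, which every TATCGATA contains, occurred in 37 members (40.2%) and 17.5% of other promoters. No member held GAGAGAG, a run of the repeat bound by the pioneer factor GAF, or CAGGTAG, bound by the pioneer factor Zelda, against 6.23% and 1.73% of other promoters. GGTCACACT, a form of the motif of M1BP, occurred in 9 members (9.78%, others 5.83%), and TATAAA in 42 members (45.7%, others 45.3%), of which 10 remained within 100 bp of the start (10.9%, others 23.8%). A match describes letters and not a bound site.

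The letters occurred in members that were never open as well as in members that were. Among the 33 members without a peak in any library, 15 (45.5%) had TCT letters at the main start and 12 (36.4%) had TATCGAT, while among the 59 members with a peak in at least 1 library 23 (39.0%) had TCT letters and 25 (42.4%) had TATCGAT. None of the 6 members open in 10 or more libraries had TATCGAT. In the median member promoter 100% of the 31-base words occurred once in the genome, and RpS14a, RpS14b and RpS15Ab were the members below 90%, at 86.0%, 84.0% and 81.6%. The part of mapping in these counts was not tested.

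A gene is called open in a library where a peak overlaps 500 bp on either side of any of its annotated starts. Libraries listed between 1505 peaks, in a HIRA mutant library at 0.5-1.5h, and 11432 peaks, in a HIRA wild-type library at 2-3h, and read depth is not known because the lists hold peak positions only. Peak numbers differed between the groups compared, and each comparison of open shares below is also given with equal numbers of the widest peaks. A HIRA mutant library at 2-3h with 10595 peaks had 28 members and 24.4% of other genes open. A dPCIF1 mutant library at 0.5-1.5h with 9774 peaks had 42 members and 31.9% of other genes open. What part peak number has in such values was not tested beyond the equal-number alternative. A peak near a ribosomal protein start can belong to a neighbour, since 37 of the 92 members have the start of another coding gene inside the window. The second measure, a peak that covers a start itself, was added after the data were seen.

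Open ribosomal protein genes numbered 2 and 4 in the HIRA mutant libraries at 0.5-1.5h and 17 and 23 in their wild-type controls. At 2-3h they numbered 28 and 17 in HIRA mutants and 38 and 45 in wild type. In the dPCIF1 set they numbered 42 and 48 in mutants and 29 and 29 in wild type. Mutant and control libraries did not overlap in any of the 3 sets. The same held for the share of all other genes open, so the lack of overlap was not particular to members. Relative to the percentage of all other genes open in the same library, members stood at 0.622 and 0.749 in HIRA mutants at 0.5-1.5h and between 1.05 and 1.57 in the other 10 libraries.

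**Figure D1:**
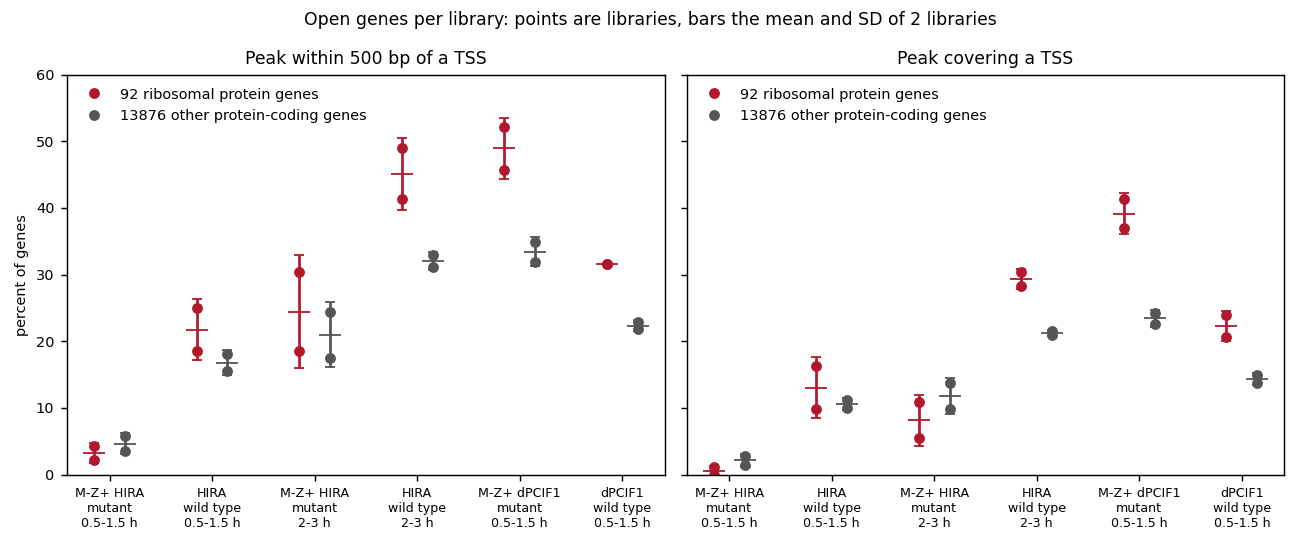
Percentage of ribosomal protein genes (red) and of all other protein-coding genes (grey) with a peak within 500 bp of a start (left) and with a peak covering a start (right), by group. Points are libraries and bars show the mean and SD of 2 libraries. Members lie below the other genes only in HIRA mutants at 0.5-1.5h on the left (3.26% against 4.65%), and in HIRA mutants at both stages on the right (0.543% against 2.13%, and 8.15% against 11.8%).

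Membership in the open set was uneven. RpL13A, a large subunit protein, was open in 12 of 12 libraries, RpS3A and RpS28a in 11, and RpS20 and RpS19b in 10. At the other end, 33 of 92 members (35.9%) were open in none, against 49.4% of other genes. The first 15 of these by symbol are RpL10, RpL10Aa, RpL10Ab, RpL12, RpL18, RpL22-like, RpL23, RpL24, RpL27, RpL28, RpL29, RpL31, RpL34a, RpL34b and RpL35A. RpL10, whose product joins the large subunit late in its assembly, had no peak in any library, and neither did RpLP1 of the acidic stalk, RpS27A, which encodes a fusion of ubiquitin with a small subunit protein, or RpS14a and RpS14b, adjacent copies of one gene. RpL40, which encodes the other ubiquitin fusion, was open only in the second HIRA wild-type library at 2-3h, through a peak of 434 bp centred 510 bp downstream of its start.

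**Figure D2:**
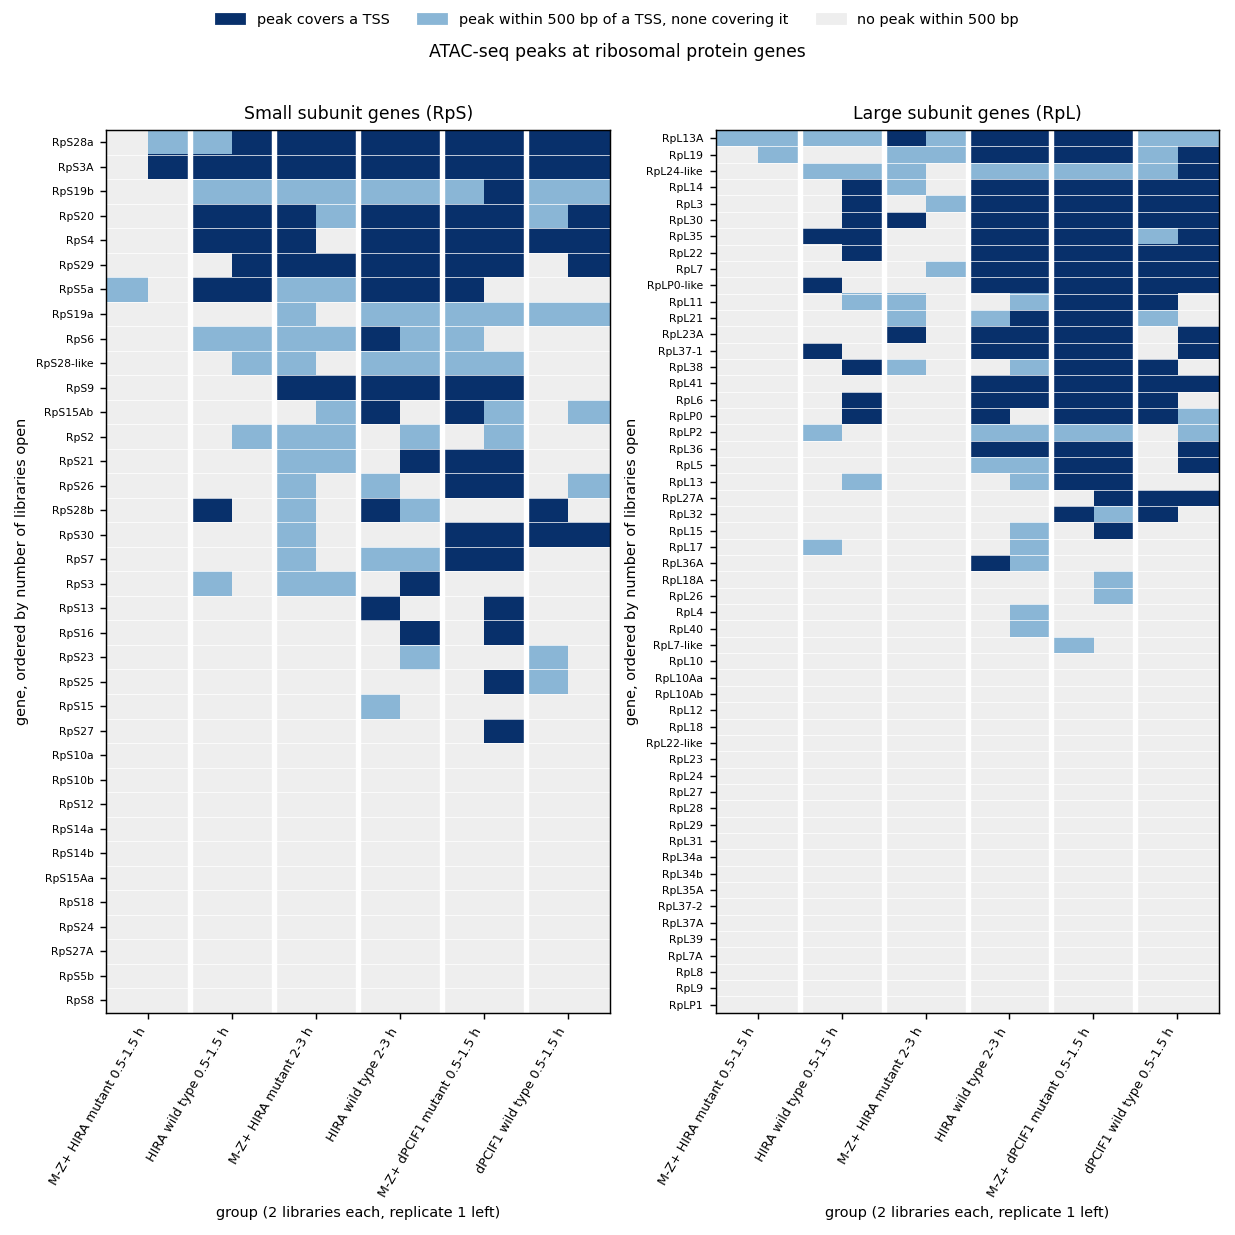
Peaks at 36 of the 38 small subunit genes (left) and all 54 large subunit genes (right) in the 12 libraries. Rows are genes ordered by the number of libraries in which they were open, columns are libraries by group, dark blue marks a peak covering a start, light blue a peak within 500 bp only and grey no peak. The 11 small subunit and 22 large subunit genes at the bottom were open in no library, and the large subunit panel is sparse in the HIRA mutant columns.

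The most persistent members differed in where their peaks lay. At RpL13A the peaks nearest the start in the HIRA set lay over the gene body, with midpoints 628 and 590 bp downstream of the start in mutants and 674 and 510 bp in wild type at 0.5-1.5h, and 475 and 740 bp in mutants and 531 and 430 bp in wild type at 2-3h. In the dPCIF1 set both mutant libraries listed a pair of peaks at RpL13A, with midpoints at -20 and 694 bp in one and at -137 and 557 bp in the other. The first dPCIF1 wild-type library also listed a pair, at -132 and 716 bp, and the second listed 1 peak at 815 bp. A peak over the RpL13A gene body was thus listed in every library, and a separate peak at or just before the start in 3 libraries of the dPCIF1 set. RpL13A was therefore open throughout, while its start was covered by a peak in both HIRA wild-type libraries at 2-3h, both dPCIF1 mutant libraries and 1 HIRA mutant library at 2-3h. RpS3A, on chromosome 4, had its start covered in all 11 libraries where it was open and lacked a peak only in the first HIRA mutant library at 0.5-1.5h. By contrast, all 10 peaks scored for RpS19b lay nearer the start of another coding gene than its own, with midpoints between -508 and -342 bp from its own start.

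Paralogs and genes of related symbol were often unlike. RpS5a was open in 8 libraries and RpS5b in none, RpS28a in 11 and RpS28b in 5, RpS19b in 10 and RpS19a in 7, and RpS15Ab in 5 and RpS15Aa in none. RpL22 was open in 7 libraries and RpL22-like in none, RpL24-like in 9 and RpL24 in none, RpL37-1 in 6 and RpL37-2 in none, RpL7 in 7 and RpL7-like in 1, RpLP0-like in 7 and RpLP0 in 6, and RpS28-like in 6. Both genes of the pairs RpS10a and RpS10b, RpS14a and RpS14b, RpL10Aa and RpL10Ab, and RpL34a and RpL34b were open in none. The peaks at RpL24-like, RpS28-like, RpS19a and RpS19b mostly lay nearer a neighbouring coding gene's start.

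At 0.5-1.5h, loss of maternal HIRA was accompanied by fewer open ribosomal protein genes. The share open was 3.26 ± 1.54% in mutants and 21.7 ± 4.61% in wild type (SD, n = 2 libraries each), a difference of -18.5 percentage points against a spread between replicates of 3.44 points. All other genes stood at 4.65 ± 1.64% in mutants and 16.8 ± 1.85% in wild type, a difference of -12.1 points, for which the exact two-sided permutation test over libraries gave p = 0.33, the smallest that 2 against 2 allows. The mutant share was 0.15 times the wild-type share for members and 0.277 times for other genes, and the members' difference exceeded that of other genes by -6.36 points, with a spread of 1.95 points. The difference was larger for members than for other genes on both scales. With only those peaks that the other replicate matched (20% mutual overlap), however, the members' difference was -10.3 points and exceeded that of other genes by -0.93 points.

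A member is called closed where both control libraries and neither mutant library have a peak in its window, and opened in the reverse case. Without maternal HIRA, 7 members closed at 0.5-1.5h (7.61%, other genes 6.59%) and none opened (other genes 0.0649%). Among them were the small subunit genes RpS4, RpS6, RpS19b and RpS20 and the large subunit genes RpL35 and RpL24-like. At RpS4 the wild-type peaks were 201 and 611 bp wide with midpoints -21 and 183 bp from the start, and neither mutant library had one. At RpL35 the wild-type peaks were 279 and 203 bp wide and covered the start. At RpS6, whose product is the ribosomal target of S6 kinase, the wild-type peaks lay 435 bp downstream and 551 bp upstream, so no one element was shared by both libraries. Counted by peaks covering a start, 5 members closed (5.43%, others 4.82%) and none opened (others 0.036%). RpL35, RpS4, RpS5a and RpS20 were among these 5.

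The mutant libraries at this stage listed 1505 and 2399 peaks and the wild-type libraries 4707 and 5449. With the 1505 widest peaks of each, the members' difference was -4.89 points, -2.22 points beyond other genes, and 3 members closed. The median member peak in this wild type lay at the 32.8 width percentile, against 55.8 for other genes. The equal-number alternative removes the narrowest peaks first, so it cannot separate peak number from peak width there. The part of width was not tested. Against the dPCIF1 wild-type set the difference was -28.3 points and 17 closed. In this and the later comparisons, leaving out a library can only keep or raise a count, since fewer libraries must meet the rule. Other genes were not counted under that relaxed rule, against the other wild-type set or with equal numbers of widest peaks. Such member counts therefore have no share of other genes to be set against. Without the first wild-type library 19 members closed, without the second 13 closed, and without the first mutant library 1 member opened.

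At 2-3h the share of members open was 24.5 ± 8.45% in HIRA mutants and 45.1 ± 5.38% in wild type (SD, n = 2 each), a difference of -20.7 points with a spread of 7.09 points. Other genes stood at 21.0 ± 4.89% in mutants and 32.1 ± 1.34% in wild type, a difference of -11.1 points (exact permutation p = 0.33). The members' difference beyond other genes was -9.58 points with a spread of 5.38 points, and leaving out 1 library mattered, since without the first or the second wild-type library it was -14.3 or -4.83 points. The mutant share was 0.542 times the wild-type share for members and 0.655 times for other genes. By peaks covering a start, members stood at 8.15 ± 3.84% in mutants and 29.3 ± 1.54% in wild type, against 11.8 ± 2.72% and 21.2 ± 0.51% of other genes in the same groups.

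In HIRA mutants at 2-3h, 10 members closed (10.9%, other genes 6.75%) and none opened (other genes 0.663%). All 10 carry large subunit symbols: RpL5, whose product binds the 5S rRNA, RpL6, RpL22, RpL35, RpL36, RpL36A, RpL37-1, RpL41, RpLP2 of the acidic stalk, and RpLP0-like, which is related to the stalk protein RpLP0 and counted here by its symbol. RpL36 had wild-type peaks of 260 and 275 bp centred -12 and -20 bp from its start, directly over the DREF letters shown above and the start, and no peak in HIRA mutants at either stage. RpL37-1 had wild-type peaks of 208 and 200 bp covering its start, and RpL6 peaks of 489 and 350 bp covering its start. The wild-type peaks of RpL5 lay 702 and 703 bp downstream and those of RpLP2 353 and 363 bp upstream, and these covered no start. By peaks covering a start, 12 members closed (13%, other genes 5.66%) and none opened (other genes 0.317%), of which 11 were large subunit genes and the other was RpS5a. Of the 10 named above 7 were among them, RpL3, RpL7, RpL14 and RpL19 were added, and RpL5, RpL36A and RpLP2 were not called.

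The split between subunits was noticed in these counts and is given without a test. Small subunit genes were open in 19 and 13 cases of 38 in HIRA mutants at 2-3h and in 18 and 19 cases in wild type, so the groups overlapped. Large subunit genes were open in 9 and 4 cases of 54 in mutants and in 20 and 26 in wild type. These groups did not overlap, and neither did those of all other genes. The difference was -30.6 points for large and -6.58 points for small subunit genes. The small subunit value depended on the mutant libraries and was -14.5 points without the first and 1.32 points without the second, while the large subunit value lay between -25 and -36.1 points with any 1 library left out. Covered starts were fewer in both subunits, at 7 and 5 of 38 small subunit genes in mutants against 12 and 11 in wild type, and at 3 and 0 of 54 large subunit genes in mutants against 16 and 15 in wild type. At 0.5-1.5h the calls leaned the other way. Small subunit genes were open in 3.95 ± 1.86% of cases in HIRA mutants and 27.6 ± 1.86% in wild type (SD, n = 2 each). Large subunit genes were open in 2.78 ± 1.31% in mutants and 17.6 ± 6.55% in wild type. In all, 5 of 38 small (13.2%) and 2 of 54 large subunit genes (3.7%) closed, against 6.59% of other genes. By peaks covering a start, 4 small and 1 large subunit genes closed (other genes 4.82%). In dPCIF1 mutants at 0.5-1.5h 51.3 ± 5.58% of small and 47.2 ± 3.93% of large subunit genes were open, against 28.9% and 33.3% in both of their wild-type libraries. In these mutants 5 small (13.2%) and 1 large (1.85%) subunit genes opened, against 6.22% of other genes. By peaks covering a start the split was narrower, at 4 small and 3 large subunit genes (other genes 5.2%).

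**Figure D3:**
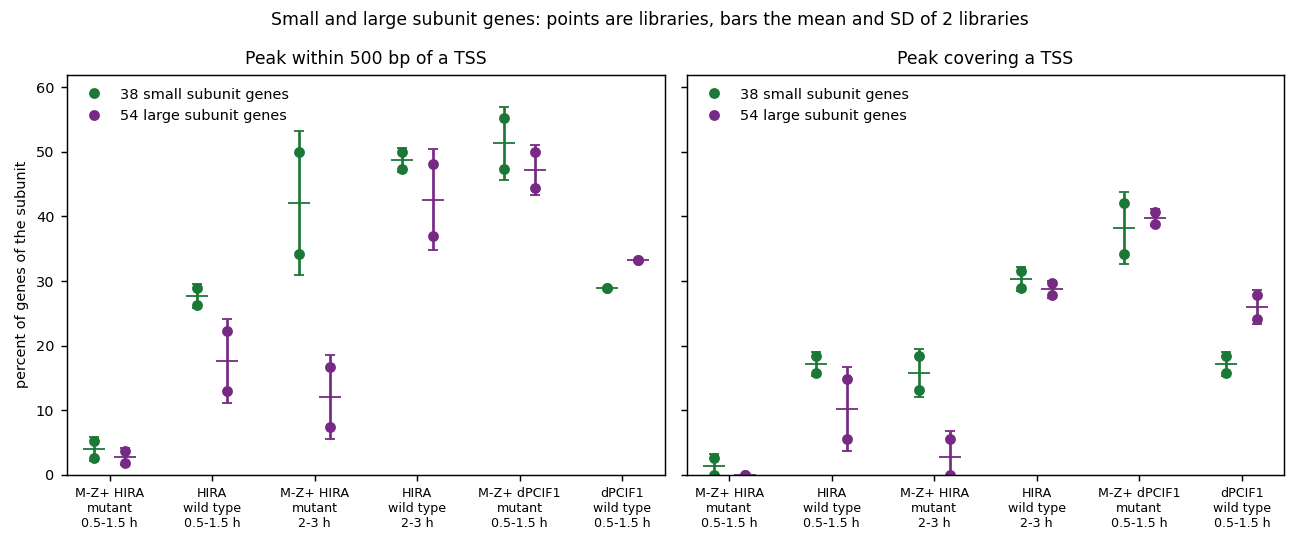
Percentage of the 38 small subunit genes (green) and 54 large subunit genes (purple) with a peak within 500 bp of a start (left) or covering a start (right), by group. Points are libraries and bars the mean and SD of 2 libraries. In HIRA mutants at 2-3h the large subunit points lie at 16.7% and 7.41% on the left, below the small subunit points at 50.0% and 34.2%, and the next widest gap between group means was in HIRA wild type at 0.5-1.5h (27.6% and 17.6%).

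The HIRA mutant libraries at 2-3h listed 10595 and 7122 peaks and the wild-type libraries 11432 and 9998. With equal numbers of widest peaks the members' difference was -12.5 points, -5.59 points beyond other genes, and 6 members closed. The closed count was 20 without the first mutant library and 17 without the first wild-type library, and 1 member opened without the second mutant library and 3 without the second wild-type library.

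The position of the peaks also differed. Among members open in HIRA mutants at 2-3h, the median peak midpoint lay 190.5 and 245 bp downstream of the nearest start in the 2 libraries, against -14.5 and 104 bp in wild type. For all other open genes the medians were 17 and -2 bp in mutants and 14 and 10 bp in wild type. A start was covered in 35.7% and 29.4% of open members in mutants and in 73.7% and 57.8% in wild type, while other open genes stood at 56.1% and 56.2% in mutants and 65.5% and 67.1% in wild type. Mutant and wild-type libraries did not overlap in either measure for members, while for other genes they overlapped in position and not in the share of covered starts. These medians are taken over the genes open in each library, which differ between mutants and wild type. A shift within the same genes was not tested. RpS2, which lines the mRNA entry channel, had peaks of 669 and 660 bp centred 812 and 797 bp downstream in the mutant libraries. Its peak was also downstream in every other library where RpS2 was open. The midpoint lay at 780 bp in the second HIRA wild-type library at 2-3h. It lay at 626 bp in the second early HIRA wild-type library and at 843 bp in the second dPCIF1 mutant library. RpS2 is therefore not an example of a shift between mutant and wild type. In the dPCIF1 set the member medians were -59.5 and -49.5 bp in mutants and -54 and -36 bp in wild type, with a start covered in 81.0% and 79.2% of open members in mutants and 65.5% and 75.9% in wild type.

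**Figure D4:**
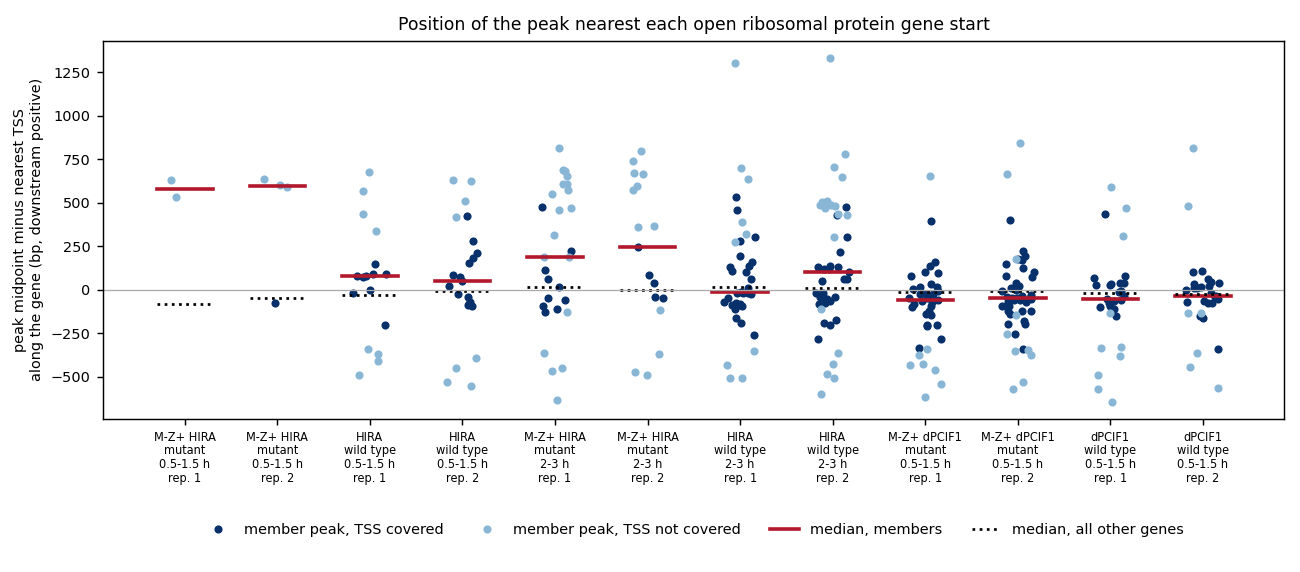
Distance in bp from the nearest annotated start to the midpoint of the nearest peak for every open ribosomal protein gene, by library, downstream positive. Dark points are peaks at genes with a covered start, light points other peaks, red lines the medians over members and dotted lines the medians over all other open genes. The red lines lie at 190.5 and 245 bp in HIRA mutants at 2-3h, above -14.5 and 104 bp in their wild type, and at 580 and 596.5 bp in HIRA mutants at 0.5-1.5h, where only 2 and 4 genes were open.

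Member peaks in HIRA mutants at 2-3h had median widths of 349 and 411 bp, against 407 and 426 bp in wild type. In dPCIF1 mutants the medians were 415 and 467.5 bp, against 269 and 336 bp in wild type, and other genes in these libraries had 438 and 429 bp in mutants and 372 and 384 bp in wild type. In wild-type embryos at 0.5-1.5h the median member peak was narrow for its library, at the 32.8 ± 0.909 width percentile in the HIRA set and 38.6 ± 12.9 in the dPCIF1 set, below the 55.8 ± 0.194 and 58.9 ± 0.697 of other genes.

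Loss of maternal dPCIF1 was accompanied by more open ribosomal protein genes at 0.5-1.5h. The share was 48.9 ± 4.61% in mutants and 31.5% in both wild-type libraries (n = 2 each), a difference of 17.4 points with a spread of 3.26 points. Other genes stood at 33.4 ± 2.14% in mutants and 22.3 ± 0.79% in wild type, a difference of 11.1 points (exact permutation p = 0.33). The members' difference was 6.29 points larger, with a spread of 1.84 points, but the mutant share was 1.55 times the wild-type share for members and 1.50 times for other genes.

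In dPCIF1 mutants 6 members opened (6.52%, other genes 6.22%) and none closed (other genes 0.548%). Among them were RpL13, RpS7, RpS9, RpS21 and RpS28-like. RpS9, which lies at the mRNA entry channel, gained peaks of 457 and 506 bp centred -101 and -72 bp from its start, over the promoter shown above. RpS7 gained peaks of 693 and 813 bp, and both covered its start. The peaks scored for RpL13 and RpS28-like lay nearer the starts of other coding genes, as did that for RpS21 in the first mutant library. By peaks covering a start, 7 members opened (7.61%, other genes 5.2%) and none closed (other genes 0.245%), adding RpL13A, RpL21 and RpS26 to RpL13, RpS7, RpS9 and RpS21.

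The dPCIF1 mutant libraries listed 9774 and 11347 peaks and the wild-type libraries 7534 and 7814, and with equal numbers of widest peaks the members' difference was 5.98 points, 0.61 points beyond other genes, with 5 opened and 1 closed. Against the HIRA wild-type set the difference was 27.2 points and 16 opened. Without the first mutant library 13 opened, and without the first or the second wild-type library 11 and 14 opened. The second mutant library left out gave 1 closed, and the second wild-type library left out gave 2.

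Both early wild-type sets carry the same stage label, and their members differed. The dPCIF1 wild-type libraries had 31.5% of members open and the HIRA wild-type libraries 21.7%, a difference of 9.78 points with a spread of 3.26 points, while other genes differed by 5.56 points. RpL7, RpL19, RpL27A, RpL41, RpS19a and RpS30 were open in both dPCIF1 wild-type libraries and neither HIRA wild-type library (6.52%, other genes 3.78%), and RpS5a and RpS6 in the reverse (2.17%, other genes 0.692%). The dPCIF1 wild-type libraries listed 7534 and 7814 peaks and the HIRA wild-type libraries 4707 and 5449. With equal numbers of widest peaks, an alternative chosen after seeing the data, the difference turned to -2.17 points, -2.31 points beyond other genes, with 2 members open only in each set. Member peaks were narrow for their library in both sets. Their median width percentiles were 32.1 and 33.4 in HIRA wild type and 29.5 and 47.7 in dPCIF1 wild type. This alternative removes the narrowest peaks first, so it cannot separate peak number from peak width. The part of width in the change of sign was not tested.

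Between the stages, more members became open in wild type. The share was 45.1 ± 5.38% at 2-3h and 21.7 ± 4.61% at 0.5-1.5h (SD, n = 2 each), a difference of 23.4 points with a spread of 5.01 points, against 15.3 points for other genes (exact permutation p = 0.33). The later share was 2.08 times the earlier share for members and 1.91 times for other genes, and the excess of 8.09 points compares with a spread of 5.13 points. Without the first 2-3h library the excess was 12.8 points and without the second 3.34 points. In all, 11 members opened (12%, other genes 7.76%), of which 8 were large subunit genes, and none closed (other genes 0.0216%). The first 10 by symbol are RpL5, RpL7, RpL19, RpL21, RpL23A, RpL36, RpL36A, RpL41, RpS7 and RpS19a, and the remaining one is RpS9. RpL19 gained peaks of 389 and 365 bp and RpL7 peaks of 212 and 275 bp, all covering the start. RpL23A, at the exit of the peptide tunnel, gained peaks of 240 and 557 bp over its start. By peaks covering a start, 7 members opened (7.61%, other genes 5.56%) and none closed, and of these RpL13A was open but uncovered at 0.5-1.5h. The peaks gained at RpS7 were broad, 1860 and 1705 bp, and lay downstream of the start without covering it.

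With equal numbers of widest peaks the wild-type difference was 4.89 points, 1.58 points beyond other genes, with 3 opened. Leaving out the first 2-3h library gave 17 opened and leaving out the second 0.5-1.5h library gave 18.

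In HIRA mutants the share open was 24.5 ± 8.45% at 2-3h and 3.26 ± 1.54% at 0.5-1.5h, a difference of 21.2 points with a spread of 6.08 points, against 16.3 points for other genes (exact permutation p = 0.33). In these mutants 9 members opened (9.78%, other genes 9.14%) and none closed (other genes 0%). All 9 were small subunit genes, with RpS2, RpS3, RpS6, RpS9, RpS19b, RpS20, RpS21 and RpS29 among them. In both 2-3h mutant libraries the peaks scored for RpS19b and RpS21 lay nearer another coding gene's start. The same held for RpS20 in the second of these libraries. RpS9 and RpS29, with peaks of 446 and 210 bp and of 421 and 223 bp, had covered starts in both 2-3h mutant libraries. At RpS3, which lies at the mRNA entry channel, the 2-3h mutant peaks lay 606 and 359 bp downstream and at RpS6 470 and 572 bp downstream. By peaks covering a start, 4 opened (4.35%, other genes 5.76%), all of the small subunit (RpS9, RpS28a and RpS29 among them). The members' difference beyond other genes was 4.87 points for peaks near a start and -2.04 points for peaks covering one, so the direction of that excess depended on the measure.

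The HIRA mutant stage difference with equal numbers of widest peaks was 3.8 points with 3 opened. Leaving out the second 2-3h mutant library raised the opened count to 23 and the excess beyond other genes to 7.39 points, and without the first that excess was 2.34 points. Both stage comparisons share libraries with the genotype comparisons of the HIRA set, so their values are not independent.

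Other genes of translation were scored in the same way. At 2-3h, mitochondrial ribosomal protein genes were open in 20.5% and 12.3% of 73 cases in HIRA mutants and in 39.7% and 31.5% in wild type, and 9 closed (12.3%, all other genes 6.75%). Translation factor genes, with symbols beginning eIF, eEF or eRF, were open in 44.4% and 29.6% of 54 cases in mutants and in 53.7% and 59.3% in wild type, and 6 closed (11.1%). Of 37 symbols listed for ribosome biogenesis, 32 were matched to the annotation and 5 were not, and 4 of the 32 closed (12.5%). The role of each matched gene was not checked, so this list may hold genes of other roles. It also shares eIF6 with the translation factor list. Of 17 cytosolic aminoacyl-tRNA synthetase genes 1 closed (5.88%). No gene of these 4 lists opened in HIRA mutants at either stage (all other genes 0.0649% and 0.663%). At 0.5-1.5h, 5 mitochondrial ribosomal protein genes (6.85%), 7 translation factor genes (13%), 4 biogenesis genes (12.5%) and no synthetase gene closed in HIRA mutants, against 6.59% of all other genes. In dPCIF1 mutants 7 mitochondrial ribosomal protein genes (9.59%), 3 factor genes (5.56%), 4 biogenesis genes (12.5%) and 4 synthetase genes (23.5%) opened, against 6.22% of all other genes, and 1 factor gene closed (1.85%, all other genes 0.548%).

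**Figure D5:**
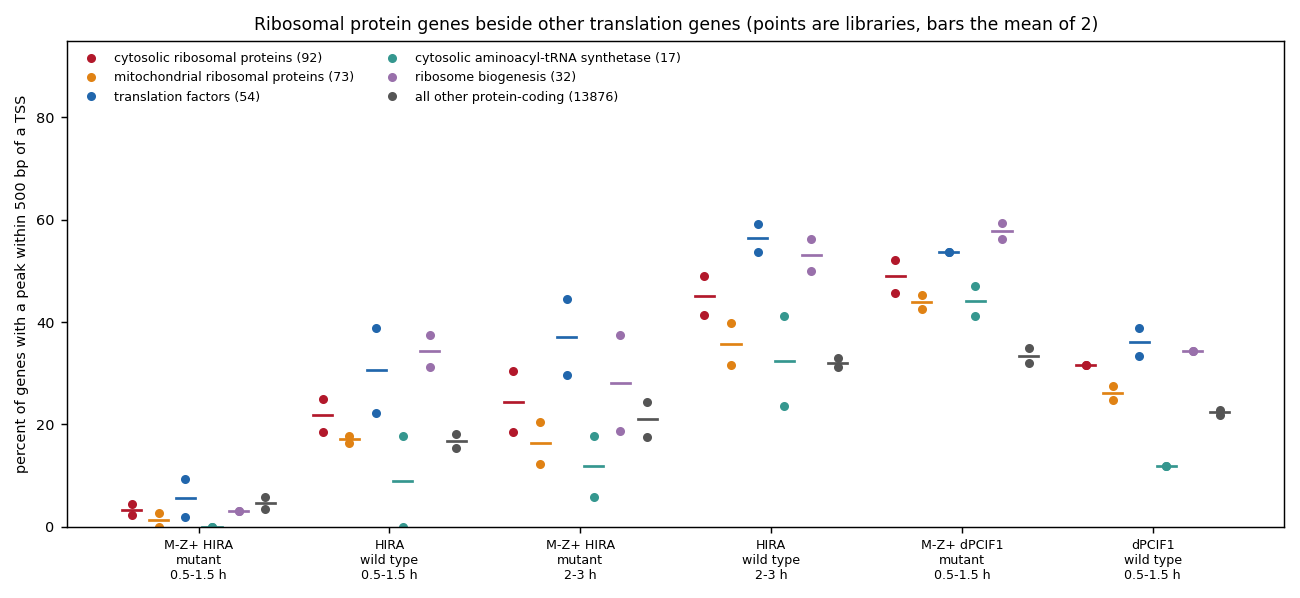
Percentage of genes with a peak within 500 bp of a start for the 92 ribosomal protein genes, for 4 lists of other translation genes and for all other protein-coding genes, by group. Points are libraries and short bars the mean of 2 libraries. Ribosomal protein genes at 2-3h (24.5% in HIRA mutants, 45.1% in wild type) lie between the mitochondrial ribosomal protein genes and the translation factor genes.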

How the data were processed

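ATAC-seq libraries of Drosophila embryos were analysed as 12 deposited peak lists, 2 per group, with groups taken from the sample titles. Per the labels and the methods, the authors trimmed reads with Trimmomatic 0.39, mapped them to dm6 with Bowtie2 2.2.5, marked duplicates (sambamba), kept uniquely placed reads of quality 30 or more (SAMtools 1.18), and called peaks in each library with MACS2 2.2.7.1 at a q-value cutoff of 0.01. The deposited files hold 3 columns of positions and no score, summit or count, so read depth is unknown. How the transposase offset was handled is not given in the sources used here. Peak numbers differed between libraries, and their part in the shares was not tested beyond the equal-number alternative.

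Genes and starts came from Ensembl release 115 (BDGP6.54, the Release 6 assembly). The 92 members and 13876 other coding genes on arms with peaks were scored with Python 3.11.15, numpy 2.4.6 and pandas 2.3.3. Libraries were the unit of replication and shares are given with SD. The p-values come from an exact permutation of library labels, for all other genes only. With 2 against 2 libraries that test cannot give less than 0.33. Scoring was tested on simulated peaks. Named genes were all members opened or closed in a comparison (the first 10 where more), those open in all or, by symbol, the first 15 open in none, both copies of paralog pairs, and 15 members named for their roles. Members and lists were chosen with earlier results of these data known. Alternatives covered the window, the annotated start, peak midpoints, equal peak numbers, replicated peaks (20% mutual overlap), neighbours, paralogs, each library left out, the other wild type and the replicate number. Values of 2 small subunit members are part of the counts and are not reported here by gene.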

Additional observations from a re-analysis of the deposited data

Results flagged for a closer look

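The share of ribosomal protein genes open at 0.5-1.5h moved in opposite directions in the 2 maternal mutants. It was lower by -18.5 percentage points in M-Z+ HIRA mutants than in their wild type, with both mutant libraries below both wild-type libraries. It was higher by 17.4 points in M-Z+ dPCIF1 mutants than in their wild type, with both mutant libraries above both wild-type libraries. The difference between the 2 effects was not tested, each contrast had a wild-type set of its own, and the listed peaks moved the same way as the open shares, numbering 1505 and 2399 in HIRA mutants against 4707 and 5449 in wild type, and 9774 and 11347 in dPCIF1 mutants against 7534 and 7814 in wild type. The part of peak number in the shares was not tested beyond the equal-number alternative. All other genes differed in the same directions, by -12.1 points in HIRA mutants and 11.1 points in dPCIF1 mutants, also without overlap between mutant and wild-type libraries.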

How the results depend on the processing

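Of 321 alternative values, 233 stayed within the spread between replicates or within 1.5 times the count, 84 moved further and 4 changed sign. The causes were not tested. Opened and closed counts were made for other genes only in the main setting and by peaks covering a start. Counts at or near 0 count as moved at a step of 1, and every difference in open share over all members kept its sign under the alternatives run, except that between the early wild-type sets, which turned to -2.17 points (-2.31 beyond other genes, 2 opened) with equal numbers of widest peaks.

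Equal numbers of widest peaks remove peaks by construction, the narrowest first. With them the members' difference was -4.89 and -12.5 points in HIRA mutants at 0.5-1.5h and 2-3h (-16.67 for large subunit genes at 2-3h). It was 5.98 in dPCIF1 mutants, and 4.89 and 3.8 for the wild-type and HIRA mutant stages. Beyond other genes it was -2.22 at 0.5-1.5h in HIRA mutants, 0.61, 1.58 and 2.32. HIRA mutants closed 3 and 6, dPCIF1 mutants closed 1, and the stages opened 3 and 3. With 250 bp windows, HIRA mutants at 0.5-1.5h differed by -14.13 (-3.87 beyond other genes) and the HIRA mutant stages by 14.13 (1.22), with 5 opened. With 1000 bp windows the values were -22.28 for HIRA mutants at 0.5-1.5h, 20.65 (8.67) for dPCIF1, 30.98 for wild-type stages and 29.89 (9.23) for mutant stages, with 14 opened. The gene model's 5' end gave -8.46 beyond other genes for HIRA mutants at 0.5-1.5h and a median midpoint of 860.5 bp there. Peak midpoints gave 2.25 beyond other genes for the HIRA mutant stages, 1 opened in HIRA mutants at 2-3h and 1 closed between wild-type stages.

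Peaks matched by the other replicate gave -10.33 (-0.93) for HIRA mutants at 0.5-1.5h, 20.65 (10.36) for dPCIF1 and 14.13 (1.21) for the mutant stages. HIRA mutants at 2-3h then closed 20 and opened 1, dPCIF1 mutants opened 20 and closed 1, and wild type opened 21 between stages. Keeping matched peaks makes the 2 libraries of a group agree more often by construction, so the rule for opened and closed is met more readily. These counts are for members only. Peaks covering a start, chosen after seeing the data, gave -12.5 (-4.06) for HIRA mutants at 0.5-1.5h, 16.3 for wild-type stages with 7 opened, and 7.61 for mutant stages with 4 opened, where the value beyond other genes turned to -2.04. Without members whose window held another gene's start, the values beyond other genes were -10.39 and -14.98 for HIRA mutants at the 2 stages, which closed 3 and 6. The dPCIF1 difference was 13.64 with 2 opened, and 5 and 3 opened between wild-type and mutant stages. Without paralogs dPCIF1 stood at 8.62 beyond other genes. The other wild-type set gave -28.26 (-10.58) and 17 closed for HIRA mutants and 27.17 (10.51) and 16 opened for dPCIF1. All peaks in the window put the dPCIF1 wild-type median midpoint at -30.75 bp. TATAAA was the one motif whose member share moved with the shorter window.

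With 1 library left out, HIRA mutants at 0.5-1.5h closed 8 to 19 and opened 0 to 1, and at 2-3h closed 12 to 20 and opened 0 to 3. Such counts can only stay or rise when a library is left out, since fewer libraries must meet the rule. The small subunit difference ran from -14.47 to 1.32. The dPCIF1 difference ran from 14.13 to 20.65, with 9 to 14 opened and 0 to 2 closed. Wild type opened 15 to 18 and HIRA mutants 10 to 23 between stages. The replicate block left each member difference as it was (-18.48, -20.65, 17.39, 23.37 and 21.2), and deviations of same-numbered libraries correlated between -0.021 and 0.005 over genes, so the numbers did not pair libraries. Presence of a peak cannot rank the strength of open genes, and absence shows no peak at this unknown depth.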
